A study of Rattus norvegicus with 6 samples.

Results

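The complement and coagulation factors examined here are 49 rat genes taken by symbol, 26 of the complement cascade and 23 of blood coagulation, fibrinolysis and their inhibitors. Probes were found for 39 of them, 20 for complement and 19 for coagulation, among 9627 named genes on the array. The other 10, C1r, C5, C7, C8a, C8b, C8g, F5, F9, F11 and F13b, were not matched to a probe and are not analysed here. Each measured member had 1 probe, and none was left out for low signal. All livers came from male Sprague Dawley rats fed a 60% high-fat diet, whose age is not given. One group was given 8730 dark tea by gavage, a tea fermented with the fungus Eurotium cristatum, and the control group was given distilled water, both for 9 weeks. There were 3 arrays per group. There is thus no comparison with a normal diet here.

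Complement is a chain of plasma proteases that marks microbes and damaged cells. It is started by recognition molecules such as C1q and the mannose-binding lectins, passes through the C3 convertases and ends in a pore built from the terminal components. Coagulation is a parallel chain that turns prothrombin into thrombin and fibrinogen into fibrin, and plasmin later dissolves the clot. Hepatocytes make and secrete most of the proteins of both systems. C1q comes mainly from macrophages, and factor VIII and tissue plasminogen activator come mainly from endothelium.

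Levels are given as log2 intensity, so that a difference of 1 is a doubling, and differences are dark tea minus control. The random control probe of the arrays read 5.05 to 5.40 on this scale, and the middle probe by mean level was at 6.47. Precision is limited by having 3 arrays a group. Control replicate 1 was unlike the rest: it correlated with them at 0.884 to 0.899 (Pearson, across probes), and the remaining 5 correlated with each other at 0.945 to 0.972. Results that rest on this array are therefore given with and without it. The samples are whole liver, so fewer cells of a type and less RNA per cell cannot be told apart.

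No member passed the correction for multiple tests. With limma, adjusted p ran from 0.949 to 0.988 over the 39 members, and 1 probe of 26419 (0.00379%) passed among all probes, which was no member. At an unadjusted p under 0.05 there was 1 member, Mbl2, against 4.23% of all probes (2.26% lower with tea, 1.97% higher). The differences were small and leaned towards lower levels with tea: 26 members had a lower and 13 a higher mean, with a median difference of -0.18. The 95% confidence interval lay inside a 2-fold change in either direction for 21 members and reached beyond it for 18. For complement the median difference was -0.24, with 14 members lower and 6 higher. For coagulation it was -0.15, with 12 lower and 7 higher. The same median over all probes was -0.0022, and over the 6605 brightest probes, among which 28 of the members lay, it was 0.070. A lower mean with tea was found for 66.7% of the members, 50.3% of all probes and 43.0% of the 6605 brightest.

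**Figure D1:**
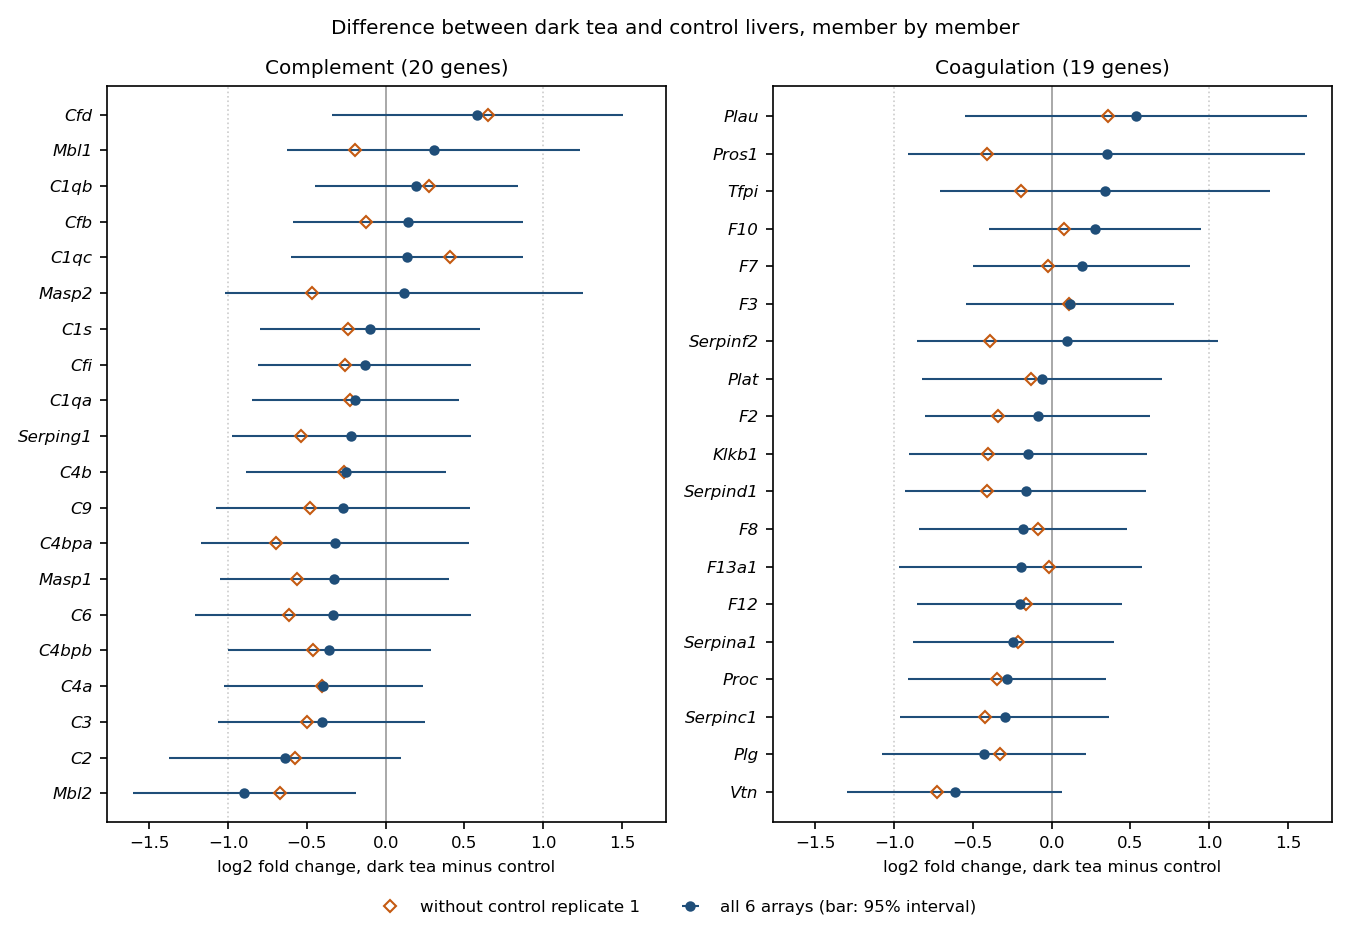
Log2 fold change (dark tea minus control, horizontal axis) of each measured complement gene and coagulation gene. Filled points are the differences over 6 arrays with 95% intervals from limma, open diamonds the differences without control replicate 1, and dotted lines mark 2-fold. All intervals but that of Mbl2 span 0.

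The groups did not overlap for 7 members (17.9%), against 10.4% of all probes. In all 7 the tea arrays were the lower ones, where 5.54% of all probes were apart in that direction, and in none were the tea arrays the higher ones, against 4.87%. They were Mbl2, C4a, C4b and C4bpb of complement and Vtn, Plg and Proc of coagulation. None of the 7 passed over all probes, with limma adjusted p = 0.949 for each. An exact permutation test (two-sided, 10 splits) adds nothing here, since separate groups of 3 fix its p at 0.1, the smallest it can give.

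**Figure D2:**
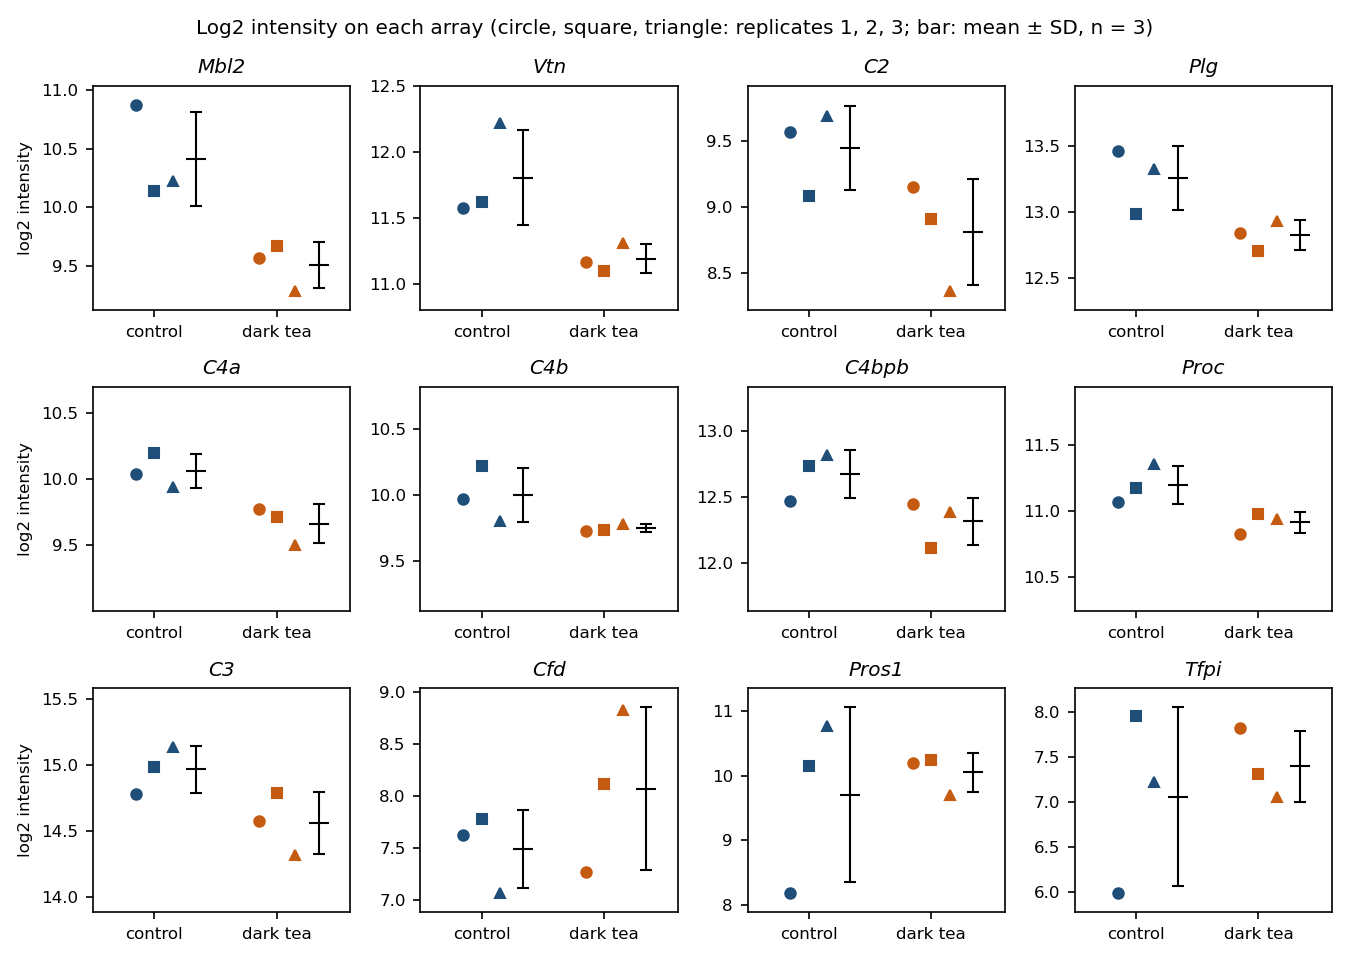
Log2 intensity (vertical axis) of 12 genes on each of the 3 control and 3 dark tea arrays, with the mean ± SD beside each group. In the plots for Mbl2, Vtn, Plg, C4a, C4b, C4bpb and Proc every tea point lies below every control point, and in those for Pros1 and Tfpi the circle of control replicate 1 lies below all other points.

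Stretches of 150 bases before the annotated gene start are given for 5 of the 7 members whose groups did not overlap. The 2 C4 stretches show how alike these genes are there. All stretches are from RefSeq on the GRCr8 build, 5′ to 3′ in the direction of the gene, and capitals mark a match to 1 of the 4 motifs searched.
Mbl2, chr1:237430893-237431042, plus strand: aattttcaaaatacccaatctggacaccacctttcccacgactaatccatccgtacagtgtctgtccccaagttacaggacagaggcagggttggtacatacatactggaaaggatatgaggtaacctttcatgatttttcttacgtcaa
Vtn, chr10:63892632-63892781, plus strand: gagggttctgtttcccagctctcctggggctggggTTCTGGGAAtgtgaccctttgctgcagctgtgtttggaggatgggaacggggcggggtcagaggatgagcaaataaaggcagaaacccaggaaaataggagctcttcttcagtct
Plg, chr1:50915407-50915556, minus strand: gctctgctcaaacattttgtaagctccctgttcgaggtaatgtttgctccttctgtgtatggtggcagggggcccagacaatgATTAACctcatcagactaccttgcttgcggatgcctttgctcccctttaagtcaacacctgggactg
C4a, chr20:4010207-4010356, plus strand: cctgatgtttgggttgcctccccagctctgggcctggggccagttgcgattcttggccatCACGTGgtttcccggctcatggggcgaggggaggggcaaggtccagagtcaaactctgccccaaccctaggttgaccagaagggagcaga
C4b, chr20:4201829-4201978, plus strand: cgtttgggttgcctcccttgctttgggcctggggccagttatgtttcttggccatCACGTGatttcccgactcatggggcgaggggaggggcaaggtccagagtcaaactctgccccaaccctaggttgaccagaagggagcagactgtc
Over the 300 bases around their starts, C4a and C4b were 90.6% identical, in an alignment with 11 mismatched and 18 gapped positions. The motifs were the HNF1 half-site GTTAAT, the C/EBP motif TTGCNNAA, the STAT motif TTCNNNGAA and the E-box CACGTG, each read on both strands. HNF1 and C/EBP factors keep many hepatocyte genes active, and STAT3 carries the acute phase signal of interleukin 6. In Vtn the capitals mark a STAT match, in Plg a match to the HNF1 half-site on the opposite strand, and in C4a and C4b an E-box. Proc also held the HNF1 half-site, and Mbl2 and C4bpb held none of the 4 motifs in this window. Of 33469 promoter entries of the same length 3.74% held the HNF1 half-site, 5.37% the C/EBP motif, 4.41% the STAT motif and 3.74% the E-box. Among the 29 entries of 28 measured members, the numbers were 5, 3, 3 and 2. A match describes the letters and is not a binding site.

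Mannose-binding lectin C, encoded by Mbl2, binds sugars on microbial surfaces and starts the lectin pathway. Its log2 intensity was 9.57, 9.67 and 9.29 in tea replicates 1, 2 and 3 and 10.87, 10.14 and 10.22 in the controls. All tea arrays lay below all controls, and control replicate 1 was the highest of the 6. The difference was -0.90 ± 0.32 (SE, 95% confidence interval -1.61 to -0.19), a 1.86-fold lower mean with tea. Without control replicate 1 the difference was -0.67 ± 0.31, and over the 6 omissions of 1 array it lay between -1.03 and -0.67. The other mannose-binding lectin gene, Mbl1, read 10.78, 10.64 and 10.42 with tea and 9.32, 10.80 and 10.81 in the controls. Here control replicate 1 was the lowest array, and the difference of 0.30 ± 0.42 was -0.19 without it.

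The lectin pathway proteases Masp1 and Masp2 had overlapping groups. MASP-2 cleaves C4 and C2 once a lectin has bound, and MASP-1 activates MASP-2. Masp1 read 10.86, 10.47 and 10.40 with tea and 10.43, 11.02 and 11.26 in the controls, a difference of -0.33 ± 0.33. Without control replicate 1 its tea arrays lay below the remaining controls, at -0.56 ± 0.32. Masp2 had a difference of 0.12 ± 0.51, and control replicate 1, at 7.37, was the lowest array. Without it the difference was -0.47 ± 0.37.

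The 3 chains of C1q, the recognition molecule of the classical pathway, did not share a direction. C1qa read 7.58, 7.69 and 7.39 with tea and 7.67, 7.53 and 8.04 in the controls, with a difference of -0.19 ± 0.30. C1qb read 6.46, 6.21 and 6.07 with tea and 6.21, 5.94 and 6.003 in the controls, with a difference of 0.19 ± 0.29. C1qc read 7.57, 7.34 and 7.51 with tea and 7.88, 6.91 and 7.22 in the controls, with a difference of 0.13 ± 0.33, or 0.41 without control replicate 1. Each interval spanned 0, and the groups overlapped for all 3. Of the markers of Kupffer cells and macrophages, 8 of 12 were measured, 5 lower and 3 higher with tea, with a median difference of -0.18. Without control replicate 1 the median of these markers was -0.28, and 7 of the 8 were lower with tea. Their summed intensity ran from 3061 to 7334 in the tea arrays and from 3717 to 7103 in the controls. The lowest single log2 value of any of them was 6.18, above the random control probe. The part of macrophage number in the C1q values was not tested. C1s, the protease carried by C1q, differed by -0.10 ± 0.31, and by -0.24 without control replicate 1.

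Among the convertase components, 4 of 6 had lower and 2 higher means with tea. C3, the central component that every pathway cleaves, read 14.58, 14.79 and 14.32 with tea and 14.78, 14.99 and 15.14 in the controls. The groups touched only between tea replicate 2 and control replicate 1. The difference was -0.40 ± 0.30 (95% confidence interval -1.06 to 0.25), and without control replicate 1, where the groups no longer overlapped, it was -0.50 ± 0.31. C2, the protease subunit of the classical convertase, read 9.15, 8.90 and 8.36 with tea and 9.57, 9.08 and 9.68 in the controls. Tea replicate 1 lay above control replicate 2, and the difference was -0.64 ± 0.33, the second largest of the complement genes, with an exact permutation p of 0.2 (two-sided). Factor B, encoded by Cfb and the matching subunit of the alternative pathway, differed by 0.14 ± 0.33, and by -0.13 without control replicate 1.

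C4 joins C2 in the classical convertase, and the rat carries C4a and C4b on the same chromosome. C4a read 9.78, 9.72 and 9.50 with tea and 10.04, 10.20 and 9.95 in the controls. The C4b values were 9.72, 9.73 and 9.78 with tea and 9.97, 10.22 and 9.80 in the controls. In both genes every tea array lay below every control, and for C4b tea replicate 3 and control replicate 3 nearly met. The differences were -0.40 ± 0.29 for C4a and -0.25 ± 0.29 for C4b, and without control replicate 1 they were -0.41 and -0.27. The genes are close copies, down to the stretches before their starts printed with the E-box, so their probes may share signal, which was not tested.

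Factor D, encoded by Cfd, is the protease that activates factor B and is made in large amounts by fat cells. It had the largest difference upwards among the complement genes, 0.58 ± 0.42, with 7.26, 8.12 and 8.83 in the tea arrays and 7.62, 7.78 and 7.07 in the controls. The spread among the tea arrays was wide, at 0.78 (SD, n = 3), and tea replicate 1 lay below 2 of the controls. Without tea replicate 3 the difference was 0.20. Of the adipocyte markers, 5 of 6 were measured. The lowest single log2 value of any of them was 4.83, for Lep in control replicate 2, below the random control probe. Their summed intensity was 1687 to 1986 with tea and 2002 to 2315 in the controls. That sum is mostly Cidec, a lipid droplet gene, which read 10.72, 10.75 and 10.51 with tea and 11.04, 10.77 and 10.81 in the controls. The other 4 markers had overlapping groups, and the median difference of the 5 was -0.08. Adipoq, which encodes the fat cell hormone adiponectin, read 5.22, 5.57 and 5.67 with tea and 6.16, 4.90 and 5.64 in the controls, near the random control probe. The part of fat cells in the Cfd values was not tested.

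Only C6 and C9 of the 7 terminal components, which build the pore, were measured. C9 read 13.51, 13.26 and 12.47 with tea and 12.94, 13.64 and 13.48 in the controls, and C6 read 9.82, 8.93 and 8.62 with tea and 8.90, 9.81 and 9.66 in the controls. In both genes tea replicate 3 was the lowest array and the groups overlapped. The differences were -0.27 ± 0.36 for C9 and -0.33 ± 0.40 for C6. Without tea replicate 3 the C9 difference was 0.034, and that of C6 was -0.083. Without control replicate 1 they were -0.48 for C9 and -0.61 for C6.

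All 4 soluble inhibitors had lower means with tea. C4b-binding protein, a cofactor for the breakdown of C4b, is built from the chains C4bpa and C4bpb. C4bpb read 12.45, 12.11 and 12.39 with tea and 12.47, 12.74 and 12.82 in the controls, so that tea replicate 1 and control replicate 1 nearly met. The difference was -0.36 ± 0.29. C4bpa read 11.80, 11.46 and 11.22 with tea and 11.06, 11.98 and 12.40 in the controls, a difference of -0.32 ± 0.38. Its lowest array was control replicate 1, and without that array the groups no longer overlapped and the difference was -0.70 ± 0.33 (limma, adjusted p = 0.885). Serping1, the C1 inhibitor that also holds the contact proteases in check, read 10.09, 10.14 and 10.08 with tea and 9.68, 10.56 and 10.72 in the controls. The tea arrays lay close together between the low control replicate 1 and the other controls, with a difference of -0.22 ± 0.34, or -0.54 ± 0.30 without that array. Cfi, the protease that cleaves C3b and C4b, differed by -0.13 ± 0.30, and by -0.26 without control replicate 1.

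Among the 5 measured vitamin K dependent factors, 2 had lower and 3 higher means with tea. Proc, which encodes the anticoagulant protein C, read 10.82, 10.98 and 10.94 with tea and 11.06, 11.18 and 11.35 in the controls, with every tea array below every control. The difference was small, at -0.28 ± 0.28. F2, the prothrombin gene, read 11.83, 11.88 and 11.90 with tea and 11.45, 12.05 and 12.37 in the controls. The tea arrays lay close together and inside the range of the controls, with a difference of -0.09 ± 0.32, or -0.34 without control replicate 1. F7, whose product starts the extrinsic pathway with tissue factor, read 7.09, 7.20 and 7.15 with tea and 6.52, 7.30 and 7.04 in the controls, with a difference of 0.19 ± 0.31, or -0.02 without control replicate 1. F10, the gene of the protease that activates prothrombin, differed by 0.28 ± 0.30. Control replicate 1 was its lowest array, and without it the difference was 0.08.

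Protein S, the cofactor of protein C, gave the widest spread of all members. Its gene Pros1 read 10.20, 10.25 and 9.71 with tea and 8.18, 10.15 and 10.78 in the controls. Control replicate 1 was far below the other 5 arrays, and the difference of 0.35 ± 0.57 became -0.41 ± 0.34 without it. Tfpi, which encodes the inhibitor of the tissue factor pathway, had the same layout, with 7.82, 7.31 and 7.05 with tea and 5.99, 7.95 and 7.22 in the controls. Its difference was 0.34 ± 0.47, and -0.19 ± 0.35 without control replicate 1.

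The cofactor genes were dim. F8, the gene of factor VIII, read 5.02 to 5.37 with tea and 5.06 to 5.52 in the controls, close to the random control probe. It differed by -0.18 ± 0.30, and by -0.085 without control replicate 1, its highest array. The endothelial markers, 4 of 10 measured, summed to 1389 to 1511 with tea and 1073 to 1985 in the controls, with control replicate 1 lowest. Their lowest single log2 value was 5.85, above the random control probe. Their median difference was 0.11, and -0.14 without control replicate 1. The part of endothelium in F8 was not tested. F3, the tissue factor gene, read 5.67 to 6.14 with tea and 5.62 to 5.997 in the controls, with a difference of 0.12 ± 0.30. F13a1, which encodes the clot cross-linking subunit of factor XIII, read 5.10 to 6.06 with tea and 5.46 to 6.08 in the controls. Its difference was -0.20 ± 0.35, and -0.015 without control replicate 1, its highest array. In the contact system, F12 read 9.52, 9.07 and 9.42 with tea and 9.62, 9.37 and 9.63 in the controls, a difference of -0.20 ± 0.29. Klkb1, the prekallikrein gene, read 11.85, 11.53 and 11.22 with tea and 11.18, 11.82 and 12.05 in the controls, a difference of -0.15 ± 0.34, or -0.40 without control replicate 1. The groups of all 5 genes overlapped.

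Plasminogen, the precursor of plasmin, is encoded by Plg, which read 12.84, 12.71 and 12.94 with tea and 13.46, 12.99 and 13.33 in the controls. Every tea array lay below every control, and tea replicate 3 and control replicate 2 nearly met. The difference was -0.43 ± 0.29 (95% confidence interval -1.08 to 0.22), and -0.33 ± 0.31 without control replicate 1. Plau, the urokinase gene, read 7.04, 5.26 and 5.47 with tea and 5.03, 5.09 and 6.04 in the controls. Tea replicate 1 was the highest array, and the difference of 0.53 ± 0.49 was -0.027 without it. Plat, the tissue plasminogen activator gene, and Serpinf2, the gene of the main plasmin inhibitor, differed by -0.06 ± 0.34 and 0.10 ± 0.43. Without control replicate 1 they differed by -0.13 and -0.39.

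Vitronectin, encoded by Vtn, stabilises the plasminogen activator inhibitor and keeps the terminal complement complex out of cell membranes. It had the largest difference of the coagulation genes. Vtn read 11.17, 11.10 and 11.32 with tea and 11.58, 11.62 and 12.22 in the controls, and every tea array lay below every control. The difference was -0.61 ± 0.31 (95% confidence interval -1.30 to 0.07), a 1.53-fold lower mean. Without control replicate 1 the difference was -0.73 ± 0.32 (limma, adjusted p = 0.872), and without control replicate 3, its highest array, it was -0.41. Serpinc1, the antithrombin gene, read 12.74, 12.85 and 12.61 with tea and 12.78, 12.95 and 13.35 in the controls. Its groups overlapped between tea replicate 2 and control replicate 1, with a difference of -0.30 ± 0.30. Without control replicate 1 the groups no longer overlapped, and the difference was -0.42 ± 0.31. Serpind1 and Serpina1, the genes of heparin cofactor II and alpha-1 antitrypsin, differed by -0.17 ± 0.34 and -0.24 ± 0.29, and by -0.41 and -0.21 without control replicate 1.

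Control replicate 1 was the lowest of the 6 arrays for 14 of 39 members (35.9%), 8 of them coagulation genes, against 27.4% of all probes and 43.6% of the 6605 brightest. It was the highest array for 6 members (15.4%), against 28.1% of all probes and 14.8% of the 6605 brightest. Without it, 33 members (84.6%) had a lower and 6 a higher mean with tea. A lower mean was then found for 49.3% of all probes and 58.3% of the 6605 brightest. Direction had turned for 7 members, all from higher to lower: Mbl1, Masp2, Cfb, F7, Pros1, Tfpi and Serpinf2. These 7 are 17.9% of the members, and 24.1% of all probes and 26.5% of the 6605 brightest turned direction without this array. The median difference was then -0.43 for complement and -0.21 for coagulation. Without this array the median was 0.0065 over all probes and -0.072 over the 6605 brightest. The number of members at an unadjusted p under 0.05 was 3, Mbl2, Vtn and C4bpa, all lower with tea, against 5.63% of all probes (3.32% lower with tea), and 0 members passed the correction with limma, against 6 probes (0.0227%). The tea arrays lay below both remaining controls for 14 members (35.9%), against 11.1% of all probes, and above them for 2, C1qb and C1qc, against 9.96%. These shares were not taken over the 6605 brightest probes, among which 28 of the members lay.

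**Figure D3:**
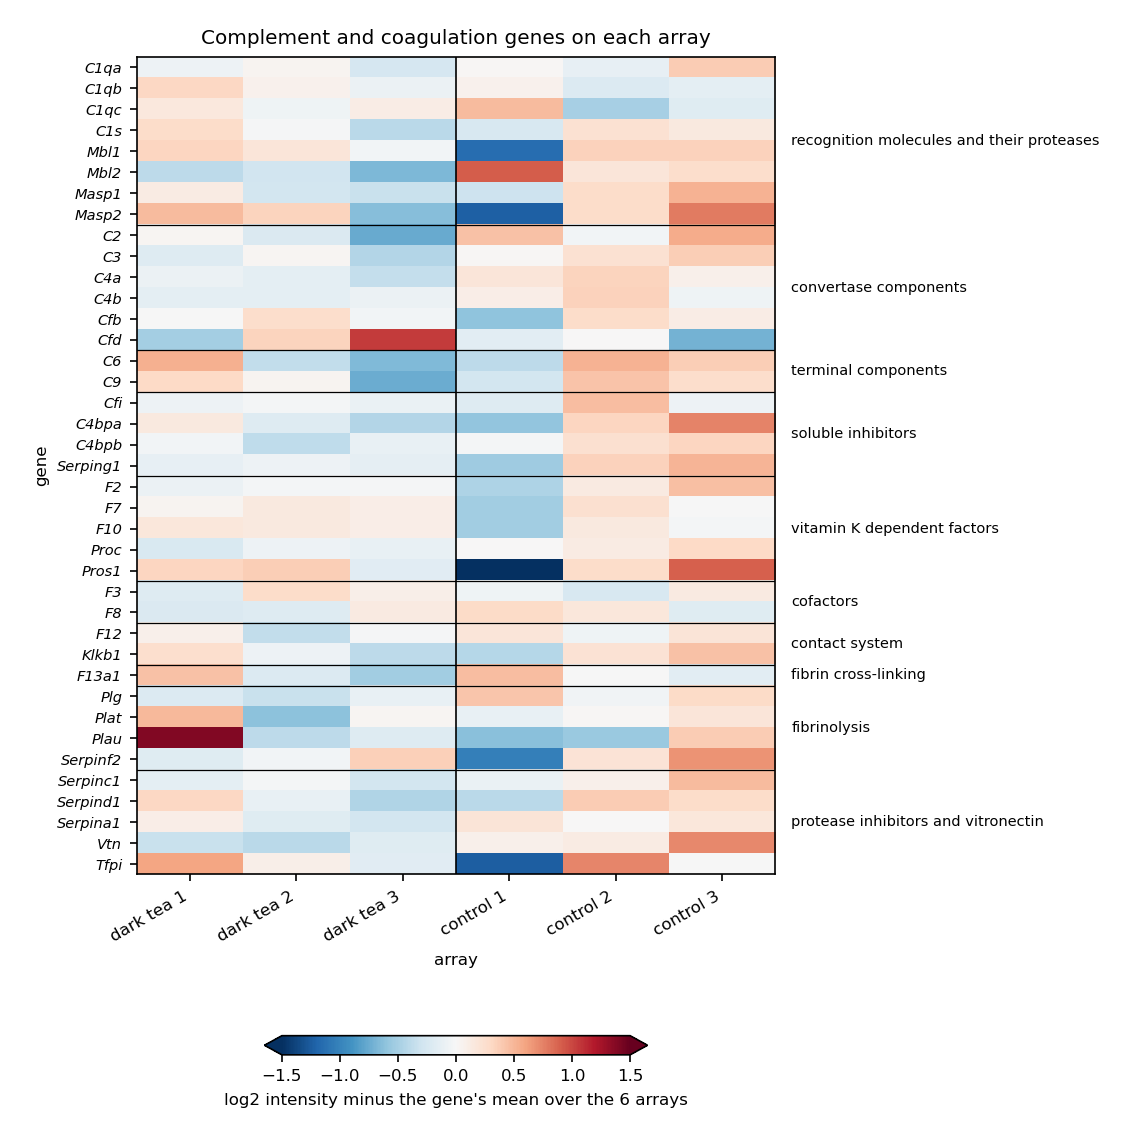
Log2 intensity minus the mean of each gene over the 6 arrays (colour, red higher and blue lower) for the 39 measured genes, in rows by role, on each array in columns. Pros1, Tfpi, Masp2, Mbl1 and Serpinf2 are dark blue in control replicate 1, and the colours of the other control arrays are mostly red.

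The position of both systems on each array showed which arrays carried the lower medians. For complement, the median deviation of the members from their own means was 0.012, -0.046 and -0.30 in tea replicates 1, 2 and 3 and -0.17, 0.28 and 0.29 in the controls. Tea replicate 3 was the lowest array for 9 of the 20 complement genes, and control replicate 3 the highest for 9. For coagulation, the medians were 0.078, -0.080 and -0.11 with tea and -0.11, 0.12 and 0.27 in the controls. In both systems control replicate 1 lay among the tea arrays, and control replicates 2 and 3 were above every tea array. The 6605 brightest probes had medians of 0.12, 0.080 and -0.13 with tea and -0.25, 0.10 and 0.12 in the controls, and so were also low in tea replicate 3 and control replicate 1. Leaving out any 1 array kept the direction for 22 of the 39 members in all 6 omissions, and for 50.9% of all named genes. The complement median stayed below 0 in each omission, between -0.43 and -0.096. The coagulation median turned to 0.016 without control replicate 3.

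**Figure D4:**
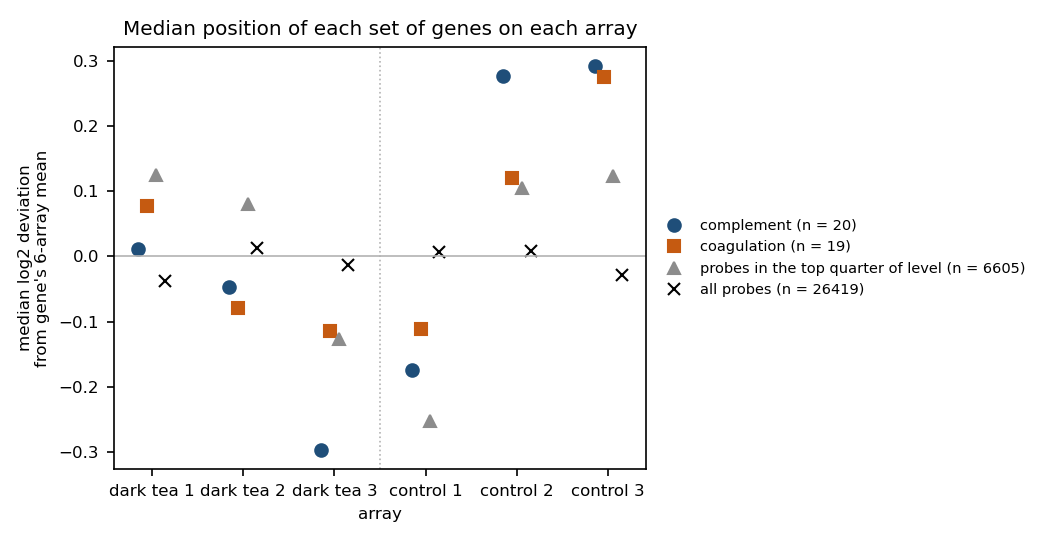
Median deviation of log2 intensity from the mean of each gene over the 6 arrays (vertical axis) for the complement genes, the coagulation genes, all probes and the 6605 brightest probes, on each array (horizontal axis). Complement and coagulation are highest in control replicates 2 and 3, and complement is lowest in tea replicate 3.

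Further genes of both systems were taken from lists outside the 49, and of each list the 2 with the smallest p are given first. Of 25 other complement genes, the receptors, membrane regulators and remaining soluble proteins, 15 were measured, 8 with a lower and 7 with a higher mean, a median difference of -0.16 and none past the correction. Cpn1, the catalytic chain of carboxypeptidase N that inactivates the anaphylatoxins, read 10.65, 10.58 and 10.48 with tea and 11.51, 11.08 and 11.36 in the controls, so that the groups lay apart. Its difference was -0.74 ± 0.29, and -0.64 without control replicate 1, its highest array. Cd55, a membrane regulator that speeds the decay of convertases, differed by 0.50 ± 0.39 with overlapping groups. Control replicate 1 was its lowest array, and without it the difference was 0.24. Of 31 other coagulation genes 26 were measured, with 17 lower, 9 higher, a median of -0.10 and none past the correction. The fibrinogen genes Fga, Fgb and Fgg were among them and differed by 0.0030 ± 0.28, -0.09 ± 0.31 and -0.14 ± 0.30. Thbd, the thrombomodulin gene, read 8.0003 in control replicate 1 and 4.65 to 5.40, about the level of the random control probe, in the other arrays, so no size is given for it. Serpina10, the gene of the protein Z-dependent protease inhibitor, had separate groups, at 9.57, 9.68 and 9.27 with tea and 10.15, 9.83 and 10.19 in the controls, and a difference of -0.55 ± 0.29. In the opposite direction Plaur, the urokinase receptor gene, read 5.13, 5.01 and 5.35 with tea and 4.57, 4.71 and 4.86 in the controls, near or below the random control probe.

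Of 13 acute phase inducers and liver transcription factors 12 were measured, 4 with lower and 8 with higher means, a median of 0.20 and none past the correction. Stat3, the transcription factor that carries the interleukin 6 signal, read 7.57, 7.19 and 7.53 with tea and 7.91, 8.28 and 8.20 in the controls, a difference of -0.70 ± 0.29. Cebpa, a transcription factor of mature hepatocytes, read 6.93, 6.66 and 6.99 with tea and 8.19, 7.17 and 7.93 in the controls. Its difference was -0.90 ± 0.34, and -0.69 without control replicate 1, its highest array. Every tea array lay below every control in both genes, as for 5.54% of all probes, and limma gave adjusted p = 0.949 for each. The largest differences upwards were 0.66 ± 0.36 for Cebpd, 0.63 ± 0.39 for Il1b and 0.55 ± 0.37 for Tnf, each with overlapping groups. Control replicate 1 was the lowest array for each of these genes. Without it the differences were 0.49, 0.34 and 0.34, and the median of the list was 0.068. Tnf read 5.03 to 5.92 with tea and 4.56 to 5.51 in the controls, around the level of the random control probe. The labelled tissue was checked against hepatocyte markers, of which 11 of 12 were measured. The median difference of the hepatocyte markers was 0.012, with 5 lower and 6 higher, and -0.21 without control replicate 1, where 10 of 11 were lower with tea. Their summed intensity was 227763 to 253647 with tea and 210475 to 267386 in the controls, with control replicate 1 lowest. The lowest single log2 value of any of these markers was 7.52, above the random control probe. The largest difference among them was that of Hpx, the hemopexin gene, at -0.98 ± 0.32, beyond that of any member. It read 11.65, 11.53 and 11.86 with tea and 12.67, 12.26 and 13.06 in the controls (limma, adjusted p = 0.949). The part of hepatocyte content in the member values was not tested.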

How the data were processed

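Rat liver RNA was measured on 6 1-colour NimbleGen arrays, per the labels. The authors deposited linear intensities, 1 for each probe of each array, and per the submitters' processing notes these came from RMA. Its settings are not given in the sources used here. Since RMA makes the distributions of arrays alike, total signal cannot be compared. From the deposited intensities log2 was taken with no further scaling; 1 random control row of 26420 was left out and no filter was applied. Probes were named by RefSeq transcript in a GRCr8 gene table, and the brightest probe stood for a gene.

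Groups follow the sample titles. Nothing in the labels says that replicates are separate animals, so each p-value reflects only how far these samples scatter, and that scatter may be technical. The fit covered all 26419 probes (limma 3.58.1 under R 4.3.3, lmFit then eBayes). Two-sided p-values were adjusted over them by Benjamini and Hochberg, with a threshold of 0.05. SE and 95% intervals are limma's. The C4 stretches were aligned with Biopython 1.88. Values per array are given for members at an unadjusted p under 0.05, with separate groups, among the 2 largest differences of a role, or on a fixed list. Others are given as differences, at times with arrays that stand out. Members, lists and tests were chosen with earlier results of these data known. The motifs and the set of 6605 brightest probes were chosen after values were seen. So were the genes added outside this rule (Adipoq, Cidec, Plaur, Cebpd, Il1b, Tnf, Hpx and the fibrinogen genes). Alternatives were other scalings, a dim-probe filter, eBayes with trend and robust, array weights, a replicate block, a pseudocount of 16, the mean of a gene's probes and leaving out each array.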

Additional observations from a re-analysis of the deposited data

How the results depend on the processing

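No member tested passed the correction under any of the 8 other settings or 6 omissions (limma). The dim-probe filter left out F8, F13a1 and Plau, so these genes were not tested there. Taking the mean of a gene's probes could not change the member levels, since each member had 1 probe. The number of probes past it was 1, and 27 with array weights, 0 with the replicate block and 0 to 6 with an array left out. Members at an unadjusted p under 0.05 numbered 1, and 2 after quantile normalization once more, 5 with array weights, 2 with the pseudocount and 0 to 3 with an array left out. The share of all probes at that p was 4.23% over all 6 arrays and 5.63% without control replicate 1. That share was not taken under the other settings, so the counts of members there cannot be set against it. The coagulation median of -0.15 ran from -0.24 to 0.016 over the omissions. Array weights turned Pros1 to -0.0028 and Tfpi to -0.22. Of the 39 members, 17 turned direction in at least 1 omission: Plau ran from -0.027 to 0.86, C9 from -0.49 to 0.034, F13a1 from -0.46 to 0.017, Klkb1 from -0.40 to 0.034, F7 from -0.024 to 0.36, Pros1 from -0.41 to 0.89, Tfpi from -0.19 to 0.79, C1qc from -0.080 to 0.41, F2 from -0.34 to 0.11, C1s from -0.26 to 0.079, Cfb from -0.13 to 0.32, Cfi from -0.26 to 0.066, Mbl1 from -0.19 to 0.55, Masp2 from -0.47 to 0.53, Plat from -0.32 to 0.23, Serpind1 from -0.41 to 0.016 and Serpinf2 from -0.39 to 0.46. The omissions use fewer samples, and the cause of the other shifts was not tested. The labels state no pairing of same-numbered samples. Such samples did not deviate together across probes (correlations of -0.22, 0.013 and -0.25), which cannot show whether they were paired. The replicate block, which left 1 member at an unadjusted p under 0.05, is therefore given only as an alternative fit. Near the random control probe, where F8, F3, F13a1 and most Plau values lay, differences may be compressed, which was not tested.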
